A study of Mus musculus with 2 samples.

Results

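The 10 genes described here encode proteins that reduce peroxides and oxidized thiols, supply or recycle glutathione, detoxify superoxide and quinones, or bind metal ions: Prdx1, Txnrd1, Srxn1, Gclm, Gsr, Slc7a11, Nqo1, Sod2, Mt1 and Mt2. They were chosen by gene name, with earlier results of these data known. All 10 had UMIs (unique molecular identifiers, each counting 1 captured RNA molecule) in both libraries, out of 23946 genes listed in at least 1 library. The study sorted live CD45+ leukocytes from hearts of female C57BL6 mice (C57BL/6J in its methods) aged 8 to 16 weeks at 24 hours after intraperitoneal injection and sequenced their RNA with the 10x Genomics 3' V3 chemistry. The Control library came from mice given the vehicle and the ISO library, titled TTS by its submitters for Takotsubo syndrome, from mice given 200 mg/kg isoproterenol, a β-adrenergic agonist. Each library pooled cells of 3 hearts, so a group is 1 library and no test between groups was possible. The gates hold sorted cells that could have been resident in the tissue, newly arrived or left in blood vessels, and these sources cannot be told apart here.

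Peroxiredoxins and the thioredoxin and glutathione systems pass electrons from NADPH to peroxides and oxidized proteins. The cystine importer Slc7a11 and the ligase modifier Gclm set the supply of glutathione, and many genes of these systems are targets of the transcription factor NRF2. Metallothioneins are small, cysteine-rich proteins that bind zinc and copper, and their genes respond to metals, through MTF1, and to glucocorticoids and inflammatory signals. Macrophages and neutrophils make oxidants themselves through the phagocyte NADPH oxidase and express many of these genes.

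Promoter sequences from RefSeq (build GRCm38.p6, 250 bases before to 50 after each annotated start) were found for 9 of the 10 genes, with 3 start sites for Txnrd1. Every window was searched on both strands for the core of the metal response element (TGCACNC or TGCGCNC), the core of the antioxidant response element (TGACNNNGC) and an amino acid response element core (TGATGNAA). Among all 32851 windows of 300 bases in the table, 25.7% held the first, 12.4% the second and 3.97% the third. The metal response core was found 4 times in the Mt2 window, 3 times each in the Mt1 and Gclm windows and 1 time in the Srxn1 window. Of all windows, 0.517% held 4 or more, and the share with 3 was not counted. The 250 bases before the start are shown for the metallothionein pair, whose levels followed different patterns below, and for Slc7a11, which had the largest difference of the 10 genes between the libraries in the macrophage gate. Capitals mark every match to 1 of the 3 cores. In Mt1, 2 more metal response matches, and in Mt2 1 more, lie in the 50 bases after the annotated start and are not shown.
Mt1, chr8:94178839-94179088, plus strand: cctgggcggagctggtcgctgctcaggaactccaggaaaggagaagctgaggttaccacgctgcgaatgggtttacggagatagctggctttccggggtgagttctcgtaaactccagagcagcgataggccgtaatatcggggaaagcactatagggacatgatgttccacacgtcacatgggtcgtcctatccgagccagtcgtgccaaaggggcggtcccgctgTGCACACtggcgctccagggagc
Mt2, chr8:94172368-94172617, plus strand: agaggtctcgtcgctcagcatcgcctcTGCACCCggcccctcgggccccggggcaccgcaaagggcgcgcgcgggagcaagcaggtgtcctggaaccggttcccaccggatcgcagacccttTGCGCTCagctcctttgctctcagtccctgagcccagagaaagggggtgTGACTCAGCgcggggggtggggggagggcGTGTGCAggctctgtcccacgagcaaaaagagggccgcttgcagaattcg
Slc7a11, chr3:50443614-50443863, minus strand: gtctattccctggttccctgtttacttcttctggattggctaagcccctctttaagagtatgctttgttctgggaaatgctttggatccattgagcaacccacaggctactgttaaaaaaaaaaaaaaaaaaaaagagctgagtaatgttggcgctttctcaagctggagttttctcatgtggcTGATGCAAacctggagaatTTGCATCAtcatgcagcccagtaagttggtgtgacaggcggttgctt

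The antioxidant response core occurred in the windows of Prdx1, Txnrd1, Srxn1, Gclm and Mt2. The matches before the start are shown with 20 bases on either side, the match in capitals. The Txnrd1 match belongs to the second of its 3 start sites. The Prdx1 and Mt2 matches read TGACTCAGC on 1 strand and so also hold TGACTCA, the AP-1 site. A match is a description of the letters, and starts used by these cells may lie outside the windows.
Prdx1, chr4:116685446-116685494: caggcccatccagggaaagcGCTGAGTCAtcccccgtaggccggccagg
Txnrd1, chr10:82859094-82859142: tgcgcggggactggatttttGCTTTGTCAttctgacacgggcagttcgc
Gclm, chr3:122245403-122245451: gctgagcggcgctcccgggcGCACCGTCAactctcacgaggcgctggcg
Mt2, chr8:94172519-94172567: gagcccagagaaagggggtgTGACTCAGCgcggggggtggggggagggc

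Cells were assigned to 8 leukocyte gates by counts of marker genes, without reading any of the 10 genes. Of 5641 Control cells (median 4790 UMIs) and 5437 ISO cells (median 8537 UMIs) that passed the quality limits, 3746 and 3286 entered a gate. Another 29.6% of Control and 27.0% of ISO cells held marker RNA of 2 lineages, or exceeded the purity limits, and were left out, and 15 barcodes occurred in both libraries. The macrophage gate held 828 Control and 781 ISO cells, the monocyte gate 122 and 2072, the neutrophil gate 114 and 76, and the dendritic cell gate 69 and 187. The B cell, T cell, NK cell and group 2 innate lymphoid cell (ILC2) gates held 154 to 1925 Control cells but 25 to 80 ISO cells. In each gate except that of monocytes, at least 8 of the gate's listed markers, or all 7 in the ILC2 gate, had their highest level there, while in the monocyte gate this held for 5 of 7 markers in Control and 4 of 7 in ISO. The macrophage and monocyte gates divide a range: 17.9% of the ISO cells in them lay within 2-fold of the dividing line, against 1.68% of the Control cells. The monocyte gate of the ISO library also held Spp1 (osteopontin) at 5338 CPM (counts per 1000000 UMIs of the gate) against 7.17 in Control, and the macrophage gate 6447 against 10.6. Within the macrophage gate the summed macrophage markers were 16160 CPM in Control and 7936 in ISO, the monocyte markers 347 and 1848, and Ccr2 165 and 604. These values stand beside every macrophage difference below, and their part in those differences was not tested.

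Levels are given in CPM, and each 95% interval covers counting error only, not variation between mice. A gene was called higher or lower in ISO at a 2-fold difference with at least 20 UMIs in the gate over both libraries. In the macrophage gate, 3 of the 9 measured genes were at least 2-fold higher in ISO and 0 were at least 2-fold lower, against 9.36% and 18.5% of all genes measured in that gate. In the monocyte gate, 4 of 9 were higher (11.3% of all genes) and 0 lower (19.7%). In the neutrophil gate, 3 of 6 were higher (19.7%) and 0 lower (11.7%), and in the dendritic cell gate 2 of 8 were higher (8.72%) and 1 lower (8.75%). Median log2 differences of all genes in the macrophage and monocyte gates were -0.20 and -0.24, and those of the measured members were 0.42 and 0.98. When the median gene was set to 0, the monocyte count became 7 of 9.

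**Figure D1:**
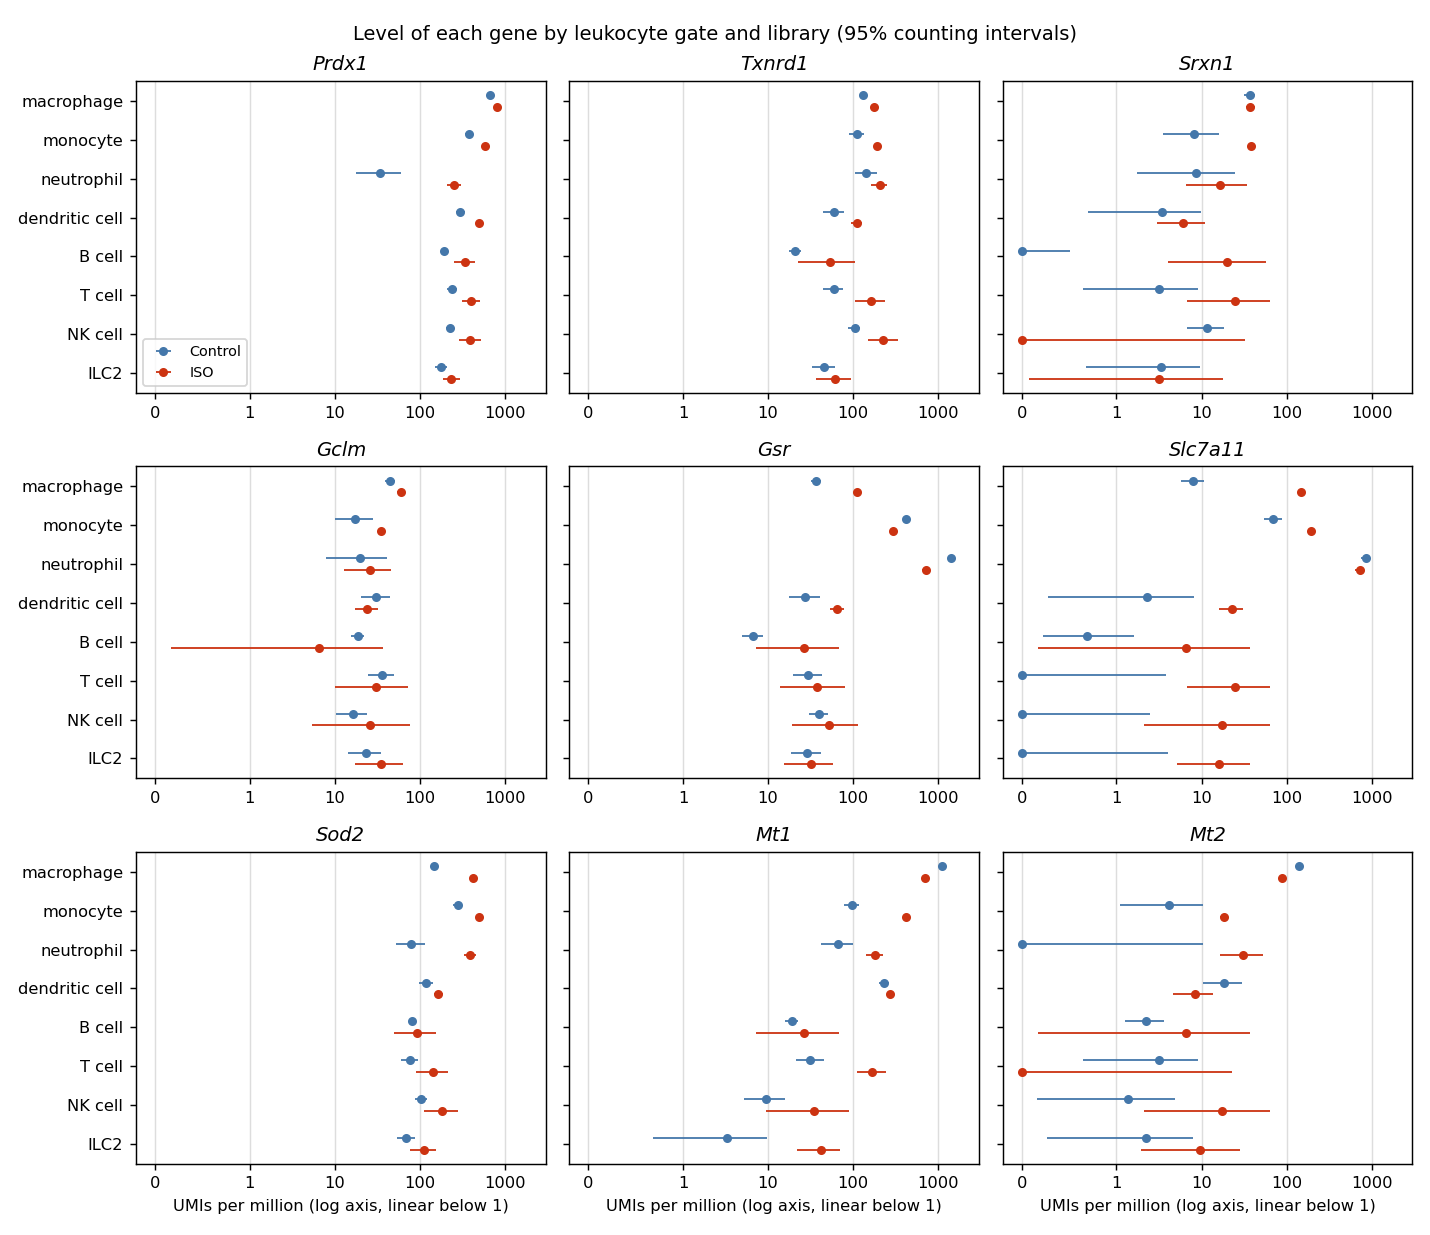
CPM of 9 of the 10 genes (x axis, logarithmic above 1) in 8 leukocyte gates (y axis) of the Control (blue) and ISO (red) libraries; Nqo1, with 2 and 4 UMIs in the macrophage gates, is not drawn. Points are 1 library each and bars are exact Poisson intervals; Mt1 and Mt2 were highest in the macrophage gate, and Gsr and Slc7a11 in the neutrophil gate, of either library.

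The peroxiredoxin Prdx1, which reduces hydrogen peroxide in the cytosol (chr4:116685544-116700822), had UMIs in every gate of both libraries. In Control its level ran from 34.2 CPM (17.7 to 59.7) in the neutrophil gate to 670 (648 to 692) in the macrophage gate, and in ISO from 236 (185 to 296) in the ILC2 gate to 801 (781 to 821) in the macrophage gate. Macrophage, monocyte and dendritic cell gates kept the first 3 places in both libraries, although the interval of the dendritic cell gate overlapped the next gate in each. The ISO level was above the Control level in all 8 gates, although in the ILC2 gate the log2 difference of 0.42 (-0.01 to 0.82) did not exceed counting error. In CPM the difference was small in the macrophage gate, at 0.26 on the log2 scale (0.20 to 0.32), where other processing choices gave 0.22 to 0.80. It was large in the neutrophil gate, where 12 UMIs in Control and 108 in ISO gave 2.84 (2.03 to 3.89). With each cell thinned to 1000 UMIs, 1.75% of Control neutrophils (0.213 to 6.19) and 15.8% of ISO neutrophils (8.43 to 26.0) had a Prdx1 UMI. Macrophage shares also lay apart, at 28.1% in Control (25.1 to 31.3) and 48.8% in ISO (45.2 to 52.4). The tenth of the macrophages with the most held 58.7% of the thinned Prdx1 UMIs in Control and 43.4% in ISO. In the neutrophil gates of Control and ISO the summed macrophage markers stood at 185 and 294 CPM and the monocyte markers at 783 and 1522. The gate's own markers summed to 113156 and 79042 CPM. Dendritic cell markers were 134 and 348, endothelial markers 111 and 752 and cardiomyocyte markers 208 and 42.3. These values stand beside every neutrophil difference, and their part in those differences was not tested. Taking off the share of macrophage and monocyte RNA read from Spp1, 2.90% of the ISO neutrophil UMIs, gave a difference of 2.98. The gate itself excludes barcodes at or above an Spp1 limit, so this share was held low by the gating. The share cannot show RNA from cells with little Spp1, and nothing about such RNA follows from the 2.98. Keeping barcodes of 2 lineages gave 1.03 and assigning each barcode by the largest marker share 1.21.

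Txnrd1 (chr10:82833951-82897712), the reductase that returns electrons from NADPH to thioredoxin, was 130 CPM (120 to 140) in Control and 174 (164 to 183) in ISO macrophages, and 110 (89.8 to 132) and 189 (183 to 196) in the monocyte gate. The gates with the highest level could not be ordered. In Control the neutrophil, macrophage, monocyte and NK cell intervals overlapped in turn. In ISO the NK cell and neutrophil intervals overlapped those of the monocyte, macrophage and T cell gates. No myeloid gate reached a 2-fold difference, and the largest was 0.87 (0.44 to 1.35) in the dendritic cell gate. The B, T and NK cell gates did, at 1.44 (0.12 to 2.37), 1.47 (0.72 to 2.15) and 1.15 (0.47 to 1.73), but on 8, 26 and 26 ISO UMIs. The T cell difference was 0.50 by the largest marker share and the NK cell difference 0.68 with gates on thinned cells, both under 2-fold. Srxn1 (chr2:152105516-152111376) encodes sulfiredoxin, which restores overoxidized peroxiredoxins. It was 36.6 CPM (31.7 to 42.1) in Control and 37.4 (33.2 to 42.0) in ISO macrophages, a difference of 0.03 (-0.23 to 0.30). In the monocyte gate 8 Control UMIs gave 8.19 CPM (3.54 to 16.1) and 701 ISO UMIs 37.8 (35.1 to 40.7), a difference of 2.12 (1.22 to 3.43). Macrophage and monocyte gates were thus level in ISO, whereas in Control the macrophage gate was above every other gate beyond counting error.

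Gclm (chr3:122245557-122270732), the regulatory subunit of the rate-limiting ligase of glutathione synthesis, had low levels throughout, with no gate at 2-fold. It was 44.6 CPM (39.1 to 50.6) in Control and 59.6 (54.2 to 65.3) in ISO macrophages, and 17.4 (10.1 to 27.9) and 35.2 (32.6 to 38.1) in the monocyte gate. The monocyte difference of 0.98 (0.33 to 1.81) lay just under the limit, and the macrophage difference was 0.42 (0.19 to 0.65). Some gene models overlap Gclm, Txnrd1, Slc7a11, Gsr and Mt2 in the annotation, in part on the opposite strand, and the strand setting of the counting is not given in the sources used here.

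Slc7a11 (chr3:49892526-50443614, minus strand), the cystine-glutamate antiporter subunit, had the steepest order of gates. Neutrophils had 849 CPM (755 to 951) in Control and 721 (643 to 807) in ISO, above the monocyte gate at 69.6 (54.1 to 88.2) and 195 (188 to 201). The macrophage gate followed with 7.99 CPM (5.78 to 10.8) in Control and 146 (137 to 155) in ISO. Each step among these 3 gates exceeded counting error in either library. In macrophages the log2 difference was 4.17 (3.75 to 4.66), the largest of any member with 20 UMIs in a myeloid gate as gated here. It was 3.30 by the largest marker share and 2.72 with gates on thinned cells, where Mt2 (2.99) and Srxn1 (2.89) in the monocyte gate were larger. The monocyte difference was 1.47 (1.14 to 1.85), and in dendritic cells 2 Control and 41 ISO UMIs gave 3.01 (1.37 to 6.41). In neutrophils the difference was -0.24 (-0.47 to -0.00), and its direction turned under 3 other gating rules: it was 0.58 with barcodes of 2 lineages kept, 0.34 by the largest marker share and 0.07 with gates on thinned cells. Thinned shares followed the levels: 0.845% of Control (0.341 to 1.73) and 11.1% of ISO macrophages (9.02 to 13.6) had a Slc7a11 UMI, against 3.02% and 42.0% unthinned. In neutrophils the thinned shares were 52.6% (43.1 to 62.1) and 51.3% (39.6 to 63.0). Lymphoid gates had 0 to 5 UMIs, and in the ISO library 0.535% of dendritic cells had a UMI after thinning. The Spp1 share of these dendritic cells was 1.86%, a value held low by the gate's own Spp1 limit.

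Gsr (chr8:33652523-33698163), glutathione reductase, had its highest level in the same gate but moved differently. Neutrophils had 1416 CPM (1294 to 1546) in Control and 714 (636 to 799) in ISO, a difference of -0.99 (-1.20 to -0.78) that was -0.29 with barcodes of 2 lineages kept and -1.63 without purity limits. The monocyte gate was second, at 421 CPM (381 to 463) and 293 (285 to 301), a difference of -0.52 (-0.67 to -0.37) that was -0.02 with gates on thinned cells. Macrophages had 36.8 CPM (31.9 to 42.3) and 112 (105 to 120), which was 1.60 higher in ISO (1.38 to 1.84), and dendritic cells 27.3 (17.5 to 40.7) and 64.6 (53.4 to 77.4), which was 1.22 higher (0.60 to 1.94). The gates thus lay closer together in ISO than in Control. After thinning, 76.3% of Control (67.4 to 83.8) and 53.9% of ISO neutrophils (42.1 to 65.5) had a Gsr UMI, while in macrophages the shares were 3.38% (2.26 to 4.85) and 8.96% (7.05 to 11.2).

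**Figure D2:**
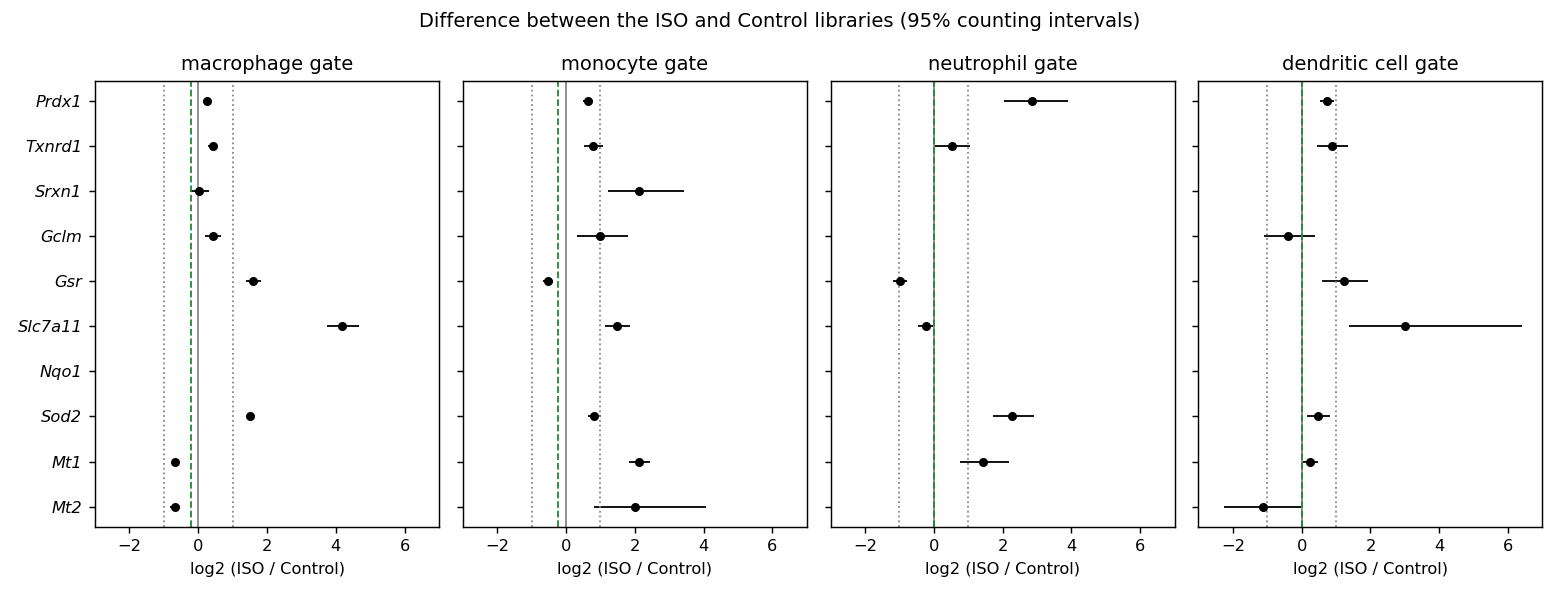
Log2 ratio of the ISO to the Control level (x axis) for each gene with at least 20 UMIs (y axis) in 4 myeloid gates; bars are exact 95% counting intervals, dotted lines mark 2-fold and the green dashed line the median of all genes in the gate. Slc7a11 at 4.17 in the macrophage gate stands farthest right, and Gsr lies above 0 in the macrophage and dendritic cell gates and below 0 in the monocyte and neutrophil gates.

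Nqo1 (chr8:107388225-107403206), a quinone reductase and a common readout of NRF2 activity in other tissues, was near the limit of detection. All quality-passed cells together held 12 UMIs in Control and 14 in ISO. The macrophage gate had 2 Control UMIs (0.372 CPM, 0.0450 to 1.34) and 4 ISO UMIs (0.524 CPM, 0.143 to 1.34), and neutrophils and dendritic cells had 0 in both libraries. A count of 0 in Control neutrophils allows up to 8.55 CPM and in ISO neutrophils up to 7.05 CPM, so no ratio was formed.

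Sod2 (chr17:13006846-13040063), the manganese superoxide dismutase of mitochondria and a target of NF-κB, had an ISO level above its Control level in all 8 gates. The difference reached 2-fold in the macrophage and neutrophil gates only. Macrophages had 146 CPM (136 to 156) in Control and 417 (402 to 432) in ISO, a difference of 1.52 (1.40 to 1.63). Neutrophils had 79.8 CPM (53.0 to 115) and 390 (333 to 454), a difference of 2.27 (1.71 to 2.92). Monocytes held the highest Sod2 level in both libraries, at 279 CPM (247 to 315) and 495 (485 to 505), with a smaller difference of 0.82. In dendritic cells the difference was 0.48 (0.16 to 0.82), and in the 4 lymphoid gates it ran from 0.25 to 0.92. The lowest of these, in the B cell gate on 14 ISO UMIs, had an interval of -0.68 to 0.96 and did not exceed counting error. The thinned share of cells with a Sod2 UMI was 10.7% (8.72 to 13.1) in Control and 31.0% (27.8 to 34.4) in ISO macrophages, and 6.14% (2.50 to 12.2) and 28.9% (19.1 to 40.5) in neutrophils.

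**Figure D3:**
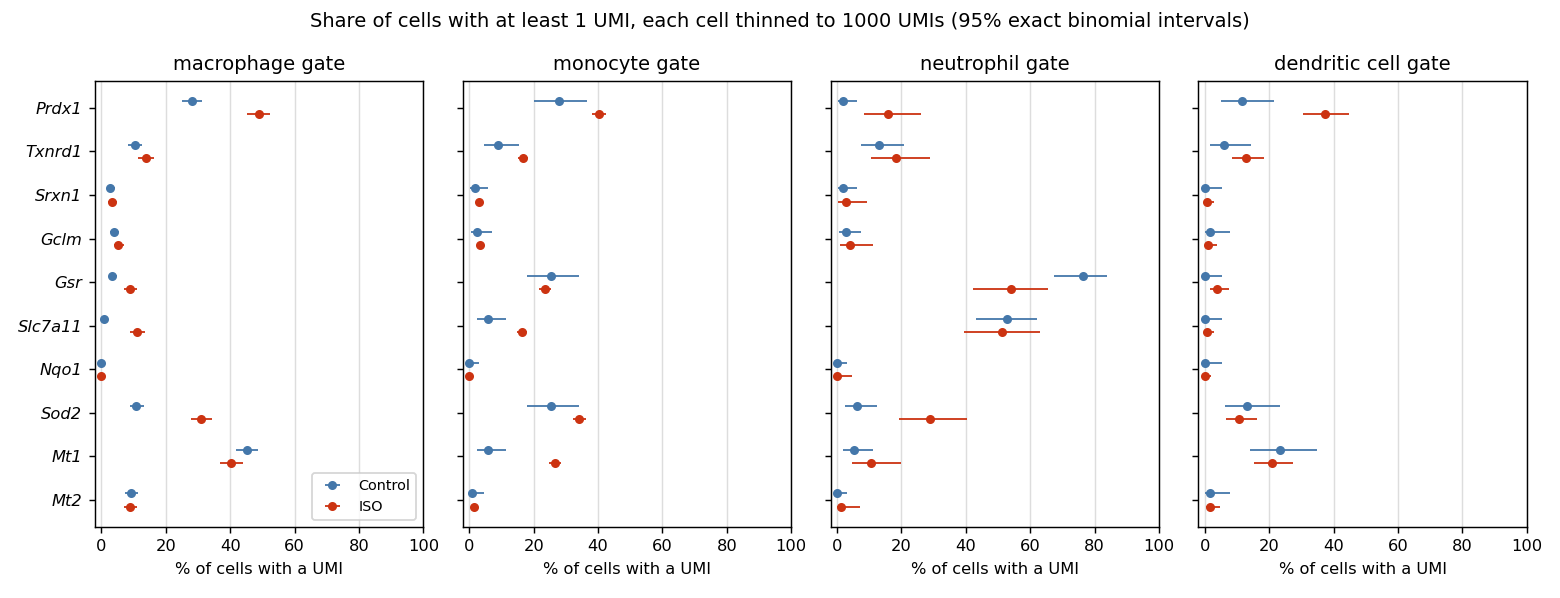
Percent of cells with at least 1 UMI of each gene (x axis) in 4 myeloid gates of the Control (blue) and ISO (red) libraries, with every cell thinned to 1000 UMIs; bars are exact 95% binomial intervals. Macrophage shares of Sod2 (10.7% and 31.0%) and Slc7a11 (0.845% and 11.1%) lie apart, whereas those of Mt1 (45.2% and 40.3%) overlap.

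The metallothionein genes Mt1 (chr8:94179082-94180327) and Mt2 (chr8:94172664-94173568) lie 5513 bases apart on the same strand. In either library Mt1 and Mt2 were highest in the macrophage gate. Mt1 was 1100 CPM (1072 to 1129) in Control and 694 (676 to 713) in ISO macrophages, a difference of -0.66 (-0.72 to -0.61). Other processing choices gave -0.68 to -0.12 for this Mt1 difference. Mt2 was 140 CPM (130 to 150) and 87.7 (81.2 to 94.6), a difference of -0.67 (-0.83 to -0.52), whose direction turned to 0.34 when gates were set on cells thinned to 1000 UMIs. The monocyte gate went the other way. Its Mt1 level was 96.2 CPM (77.8 to 118) in Control and 422 (412 to 431) in ISO, 2.12 higher (1.84 to 2.44). Its Mt2 level was 4.09 CPM (1.12 to 10.5) and 18.6 (16.7 to 20.6), 2.01 higher (0.81 to 4.06). The macrophage gate of Control therefore stood 4.76-fold above the next gate in Mt1, and that of ISO 1.65-fold.

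Dendritic cells were second in Control, with a Mt1 level of 231 CPM (200 to 265) against 271 (248 to 297) in ISO, a difference of 0.23 (-0.01 to 0.48) that was -0.45 when barcodes of 2 lineages were kept. Their Mt2 level, on 16 and 15 UMIs, was 18.2 CPM (10.4 to 29.6) and 8.28 (4.63 to 13.7), a difference of -1.14 (-2.26 to -0.03). In neutrophils 23 and 76 UMIs gave 65.5 CPM (41.5 to 98.3) and 179 (141 to 223), a difference of 1.42 (0.76 to 2.19), which was -0.45 when barcodes of 2 lineages were kept and -0.33 when each barcode went to the class with the largest marker share. Mt2 had 0 UMIs in Control neutrophils and 13 in ISO, fewer than the minimum set for calling a difference. The ISO level was 3.57-fold a floor of 3 UMIs in the Control gate, which leaves out counting error in the 13. The exact conditional interval of the ratio began lower, at 2.51-fold. Those 13 UMIs came from 3.95% of the 76 ISO cells. Lymphoid gates in Control had Mt1 levels from 3.31 CPM (0.682 to 9.66) in ILC2 to 31.4 (21.2 to 44.9) in T cells. In ISO they ran from 26.3 CPM (7.17 to 67.4) in B cells to 167 (110 to 243) in T cells. The 27 Mt1 UMIs of the ISO T cell gate came with Spp1 at 297 CPM and Lyz2 at 681 CPM, the highest of the ISO lymphoid gates, against 6.29 and 176 in Control. In the T cell gate the difference of 2.41 (1.60 to 3.21) was -0.25 when barcodes of 2 lineages were kept.

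Within the macrophage gate, Mt1 was spread unevenly over cells. After thinning to 1000 UMIs, a Mt1 UMI was found in 45.2% of the Control macrophages (41.7 to 48.6) and 40.3% of those from ISO (36.9 to 43.9), and the tenth of the cells with the most held 51.3% and 51.6% of the Mt1 UMIs. A single Control macrophage had up to 14 Mt1 UMIs per 1000, and an ISO macrophage up to 10. Mt2 UMIs were found in 16.8% of the Control macrophages with a Mt1 UMI (13.2 to 21.0) and in 2.64% of those without (1.37 to 4.57). The ISO shares were 16.2% (12.3 to 20.7) and 3.86% (2.31 to 6.04). Of the UMIs of the pair, 88.7% were Mt1 in Control macrophages (87.9 to 89.5) and 88.8% in ISO macrophages (88.0 to 89.6), against 95.8% (95.3 to 96.2) in the ISO monocyte gate.

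The macrophage gate was divided by 4 markers of resident macrophages (Timd4, Lyve1, Folr2 and Cd163) and by Ccr2, the chemokine receptor of recruited monocytes. Cells with at least 2 resident markers were 50.6% of the Control gate (419 cells) and 26.1% of the ISO gate (204 cells). Cells with Ccr2 and none of the 4 were 8.94% (74 cells) and 52.4% (409 cells). In Control the subsets had nearly equal levels: Mt1 was 1143 CPM (1105 to 1182) in the resident-marker and 1082 (997 to 1173) in the Ccr2 subset, and Mt2 was 153 (139 to 168) and 174 (141 to 213). In ISO they parted. Mt1 was 1052 CPM (1008 to 1097) in the resident-marker and 509 (487 to 532) in the Ccr2 subset, and Mt2 was 231 (211 to 253) and 17.7 (13.8 to 22.3). The ISO difference between the subsets was 1.05 (0.96 to 1.13) for Mt1 and 3.70 (3.35 to 4.09) for Mt2.

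Between libraries, the resident-marker subset differed by -0.12 (-0.20 to -0.04) in Mt1 and by 0.60 (0.41 to 0.79) in Mt2, with Mt2 higher in ISO. The Ccr2 subset differed by -1.09 (-1.22 to -0.95) and -3.30 (-3.76 to -2.84). The resident-marker value of Mt1 is within what the scale of averaging can turn: the mean of per-cell CPM gave 0.23. Slc7a11 was higher in ISO in both subsets, from 3.70 CPM (1.85 to 6.62) to 95.1 (82.1 to 109) in the resident-marker subset and from 12.8 (5.16 to 26.5) to 175 (163 to 188) in the Ccr2 subset. Sod2 was likewise higher in both, by 1.40 (1.23 to 1.57) and 1.22 (0.94 to 1.53), and Gsr by 1.49 (1.17 to 1.82) and 1.17 (0.64 to 1.80). Srxn1 and Gclm, which differed little in the gate as a whole, were 1.11 (0.62 to 1.61) and 1.04 (0.67 to 1.41) higher in the ISO resident-marker subset, and 0.50 (-0.33 to 1.60) and 0.16 (-0.44 to 0.87) higher in the Ccr2 subset. Prdx1 was 0.86 (0.76 to 0.96) and 1.01 (0.80 to 1.24) higher, more than in the undivided gate. Of the remaining cells, the 165 Control and 53 ISO cells with neither Ccr2 nor a resident marker had Prdx1 at 767 and 1226 CPM, whereas the 170 Control and 115 ISO cells with 1 resident marker had 1217 (1150 to 1288) and 805 (754 to 857), lower in ISO. Srxn1 and Gclm in those cells with 1 marker were also lower in ISO, at 81.0 and 38.2 CPM for Srxn1 and 81.0 and 53.5 for Gclm.

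**Figure D4:**
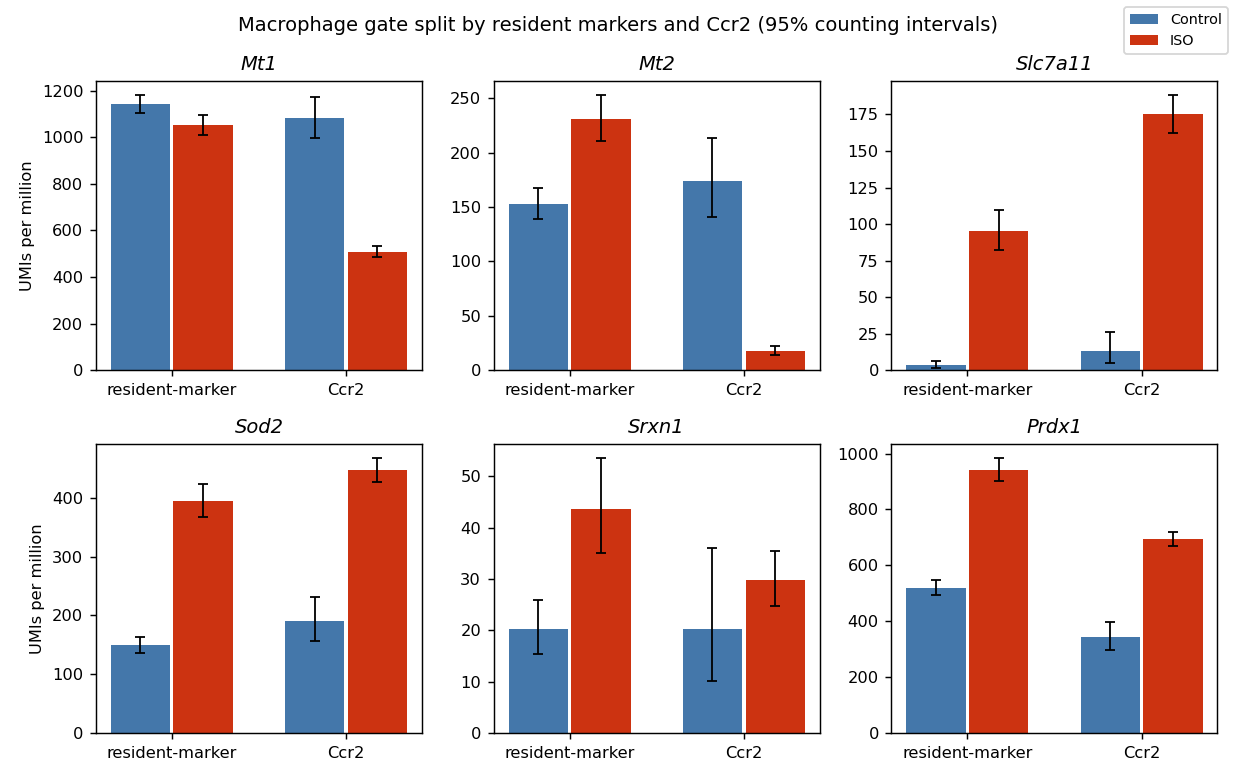
CPM (y axis, from 0) of 6 genes in macrophages with at least 2 resident markers and in those with Ccr2 and no resident marker, in the Control (blue) and ISO (red) libraries; bars are 1 library and whiskers exact Poisson intervals. Mt2 in the ISO library is 231 in the resident-marker and 17.7 in the Ccr2 subset, whereas in Control the subsets stand at 153 and 174.

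The ISO macrophage and monocyte gates were also divided by Arg1, an arginase that is nearly absent from the Control gates (at least 3 UMIs in 2 of 828 macrophages). In ISO, 31.8% of macrophages (28.5 to 35.1) had at least 3 Arg1 UMIs, at a median depth of 10649 UMIs against 7269 in those with 0. Compared with macrophages without Arg1, their Mt2 level was 30.1 against 130 CPM (log2 -2.10, -2.45 to -1.78), Mt1 617 against 744 (-0.27, -0.36 to -0.18), Slc7a11 168 against 118 (0.51, 0.31 to 0.70) and Sod2 464 against 362 (0.36, 0.25 to 0.47). In the monocyte gate, cells with at least 3 Arg1 UMIs had a higher Mt1 level, 576 against 338 CPM (0.77, 0.70 to 0.84), and a lower Gsr level, 150 against 394 CPM (-1.39, -1.50 to -1.29).

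Genes of the same systems were followed in 7 lists of 70 genes, chosen by function with earlier results of these data known. In the macrophage gate 61 had 20 UMIs, of which 12 were at least 2-fold higher in ISO (9.36% of all genes were) and 8 lower (18.5%), with a median of -0.01 against -0.20 for all genes. With the median gene set to 0, the counts were 16 and 4. Thioredoxin and peroxiredoxin genes made up most of the higher ones: 7 of 13 were higher and 1 lower, with a list median of 1.13. Prdx6, a peroxiredoxin that also acts on phospholipids, was 45.5 CPM in Control and 264 in ISO (2.53, 2.34 to 2.73). The glutaredoxin Glrx was 27.7 and 123 CPM (2.14, 1.90 to 2.41), the mitochondrial and peroxisomal Prdx5 198 and 628 (1.66, 1.57 to 1.76), and Glrx3 58.7 and 181 (1.62, 1.45 to 1.81). The thioredoxin inhibitor Txnip was lower, at 394 and 117 CPM (-1.76, -1.87 to -1.64).

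Glutathione genes in the macrophage gate showed no shared direction, with 1 of 11 higher, 2 lower and a median of -0.03. The lower ones were Ggt5, which cleaves extracellular glutathione conjugates, at 15.8 and 4.06 CPM (-1.95, -2.60 to -1.35), and the transferase Gstm1, at 48.0 and 18.2 (-1.40, -1.71 to -1.10). Of the superoxide, peroxide and heme enzymes 1 of 10 was higher and 2 lower: Akr1b8, an aldo-keto reductase, was 10.0 and 33.8 CPM (1.74, 1.32 to 2.20), catalase (Cat) 93.7 and 31.2 (-1.59, -1.82 to -1.36) and the aldehyde dehydrogenase Aldh2 282 and 130 (-1.11). Genes of NADPH supply had 2 of 6 higher and 0 lower. Regulators around NRF2 had 0 of 8 higher and 2 lower, and 1 of these, Maf, was 895 and 396 CPM (-1.18, -1.24 to -1.11). In metal handling, where 1 of 7 was higher and 1 lower, the zinc and iron importer Slc39a14 was 14.5 and 72.1 CPM (2.31, 1.97 to 2.68). None of the 6 phagocyte NADPH oxidase genes reached 2-fold.

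**Figure D5:**
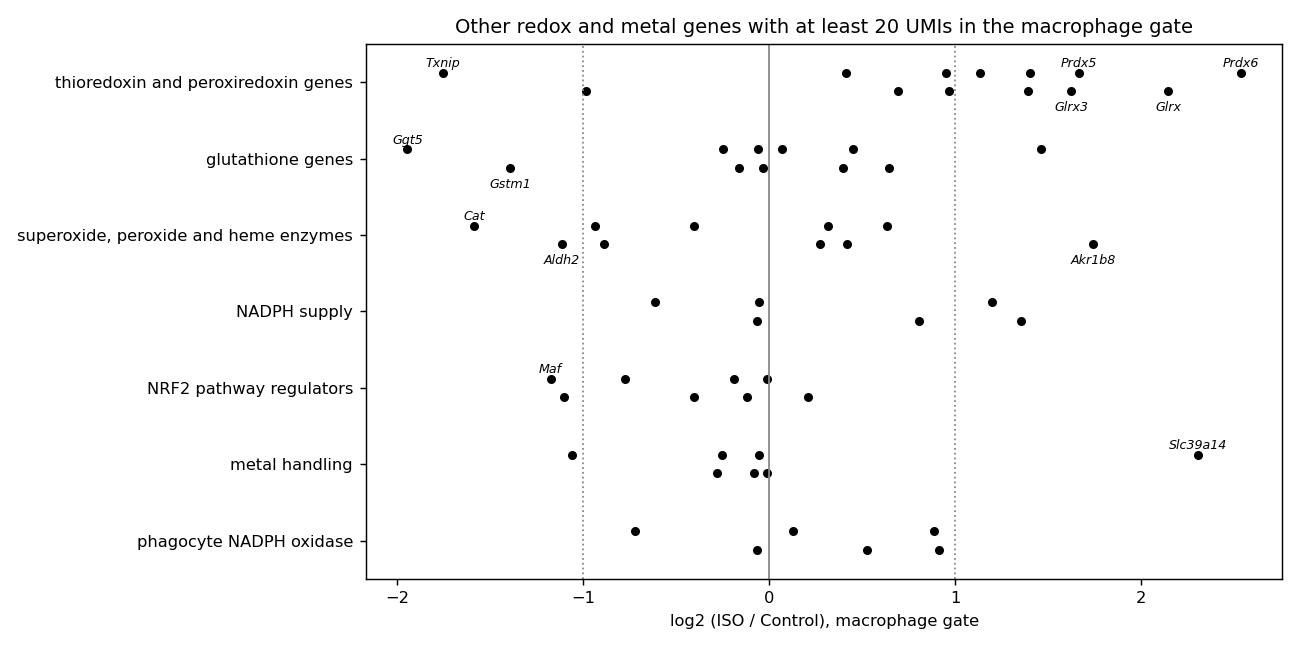
Log2 ratio of the ISO to the Control level (x axis) in the macrophage gate for 61 genes of 7 lists (y axis), each point a gene with at least 20 UMIs, dotted lines marking 2-fold. Genes named are those past 2-fold with at least 50 UMIs in the higher library, up to 6 each way; 4 of the 6 named on the right, Prdx6 (2.53), Glrx, Prdx5 and Glrx3, belong to the thioredoxin and peroxiredoxin list.

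The monocyte gate had 8 of 62 list genes higher (11.3% of all genes) and 7 lower (19.7%), a split of 14 and 2 with the median gene set to 0. In the neutrophil gate 9 of 38 were higher (19.7% of all genes) and 5 lower (11.7%), shares near those of all genes, with a list median of 0.19 against 0.01. Among the higher ones with 50 UMIs were the peroxiredoxin Prdx2, at 14.2 and 129 CPM (3.06, 1.87 to 4.86), the oxidase subunit Ncf1, at 393 and 820 (1.06, 0.77 to 1.36), Mafg, at 85.5 and 174 (1.01, 0.39 to 1.69), and the ferritin heavy chain Fth1, at 9694 and 19421 (interval 0.94 to 1.06). Among the lower ones were the pentose phosphate enzyme Taldo1, at 2253 and 803 CPM (-1.49, -1.67 to -1.30), thioredoxin (Txn1), at 2396 and 1045 (-1.20, -1.37 to -1.03), and Txnip, at 433 and 197 (-1.13, -1.54 to -0.74). Txn1, singled out after its values were seen, thus differed in opposite directions in the macrophage gate, at 278 and 729 CPM (1.39, 1.31 to 1.48), and in neutrophils; the part of cell purity in these values was not tested.

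In the dendritic cell gate 8 of 54 list genes were higher (8.72% of all genes) and 1 lower (8.75%), with a median of 0.36 against 0.02 for all genes. The higher ones with 50 UMIs were Glrx2, at 33.0 and 81.7 CPM (1.29, 0.72 to 1.93), Mgst3, at 23.9 and 57.9 (1.25, 0.59 to 2.03), Fth1, at 2902 and 6730 (1.21, 1.15 to 1.28), Slc39a14, at 12.5 and 28.7 (1.15, 0.24 to 2.28), and Prdx5, at 140 and 302 (1.11, 0.83 to 1.40). The lower one was the cytosolic superoxide dismutase Sod1, at 222 and 105 CPM (-1.07, -1.37 to -0.78). Macrophage markers in this gate summed to 105 CPM in Control and 131 in ISO.

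Over the 16 combinations of gate and library, the genes whose log2 levels followed a member most closely were named among 6098 genes with a mean of at least 20 CPM. For Mt1 these were Dab2 (Pearson r = 0.96), Cmtm3 (0.94) and Tbxas1 (0.94), and for Slc7a11 they were Clec4e (0.97), Clec4d (0.97) and Hp (0.95). Sod2 was followed by Gm14636 (0.90), Capza2 (0.89) and Xbp1 (0.89), and Srxn1 by Hmox1 (0.82), heme oxygenase 1, Fcgr1 (0.78) and C3ar1 (0.78). Among the members, Slc7a11 and Gsr were most alike (0.87), and Mt1 and Mt2 less so (0.65). The 16 points share 2 libraries and gates of unequal depth, and gates with few UMIs weigh as much as large ones, so these values describe the pattern only.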

How the data were processed

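Cells were sorted as live CD45+ cells and prepared with the 10x 3' V3 kit, 15000 cells loaded per library. Per the labels and methods, the authors used bcl2fastq 2.19.1.403, UMI-tools 1.0.0, STAR 2.7.3a on mm10 and featureCounts 1.6.4; the annotation and strand setting are not given in the sources used here. The deposited values are counts of UMIs per gene and barcode, not normalized, 47382455 UMIs in 5927 Control and 58495112 in 5514 ISO barcodes. Cells with over 500 and under 6000 genes and under 25% mitochondrial UMIs were kept. Mitochondrial genes were those named mt-.

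The 10 members and all gene lists were chosen with earlier results of these data known, and gate limits were set after marker values were seen, without reading members. B, T, NK and ILC2 gates needed 3 distinct markers, neutrophils 5 markers and 100 marker UMIs per 10000, dendritic cells 4 markers and 10 per 10000; these cells were kept under 10 macrophage-marker, 30 monocyte-marker and 10 Spp1 UMIs per 10000 (lymphoid gates also under 20 Lyz2), with 1 lineage only. Of the rest, macrophages had at least 4 macrophage markers and no fewer macrophage than monocyte UMIs, and monocytes at least 3 monocyte markers and fewer macrophage UMIs. No doublet caller was run.

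UMIs were summed per gate and library (Python 3.11.15, numpy 2.4.6, scipy 1.17.1, pandas 2.3.3). CPM has exact Poisson intervals, shares Clopper-Pearson intervals after thinning to 1000 UMIs, and log2 ratios, with 0.5 UMI added, an exact conditional interval, all at 95%; a count of 0 allows up to 3 UMIs. With 1 library per group there was no test. UMIs remove PCR copies, but intervals cover counting error only. Named list genes had at least 50 UMIs in the higher library and a 2-fold difference, up to 6 each way in the macrophage, neutrophil and dendritic cell gates; some genes that met this rule are not reported here. Gene positions are from GENCODE vM21 (GRCm38) and promoters from RefSeq. Code was tested on simulated data. Alternatives covered gating, filters, scaling, the added UMI and removal of macrophage RNA.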

Additional observations from a re-analysis of the deposited data

Results flagged for a closer look

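Several genes differed in opposite directions between gates in the same contrast of ISO with Control; the difference between gates was not tested, since each value compares 1 library with 1 other. Gsr was higher in ISO in macrophages (log2 1.60) and dendritic cells (1.22) and lower in monocytes (-0.52) and neutrophils (-0.99). Gates on thinned cells gave -0.02 for Gsr in monocytes, and keeping barcodes of 2 lineages gave -0.29 in neutrophils. Slc7a11 was higher in macrophages (4.17), monocytes (1.47) and dendritic cells (3.01) and lower in neutrophils (-0.24), where 3 other gating rules gave 0.58, 0.34 and 0.07. Mt1 was higher in monocytes (2.12) and neutrophils (1.42) and lower in macrophages (-0.66), but other gating rules gave -0.45 and -0.33 in neutrophils. Mt2 was higher in monocytes (2.01) and lower in macrophages (-0.67) and dendritic cells (-1.14), but gates on thinned cells gave 0.34 in macrophages. Within the macrophage gate Mt2 was higher in the resident-marker subset (0.60) and lower in the Ccr2 subset (-3.30).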

How the results depend on the processing

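No paired analysis was possible because there was 1 library per group, and for the same reason no library could be left out. Over 396 alternative values of 32 member differences in the myeloid gates, 388 kept their direction, and of the 162 for the 13 differences past 2-fold, 160 stayed past it. In the lymphoid gates 288 of 300 kept their direction, and 60 of the 68 for 5 differences past 2-fold stayed past it. Some alternatives left values unchanged: keeping barcodes of 2 lineages returned the same Slc7a11 difference in macrophages (4.17) and Srxn1 difference in monocytes (2.12). Alternatives that left a gene under 20 UMIs were not counted. These counts therefore do not measure how firm a difference is. Alternatives without purity limits and with the Spp1 share taken off were chosen after seeing the data. The Mt1 difference turned in neutrophils with barcodes of 2 lineages kept (-0.45) or the class by largest marker share (-0.33), and in T cells with barcodes of 2 lineages kept (-0.25). Setting the median gene to 0 gave 7 higher members in monocytes, 14 higher and 2 lower list genes there and 16 higher and 4 lower in macrophages. Without purity limits neutrophils had 5 higher and 1 lower members, and with over 1000 genes per cell 1 lower. The largest marker share gave 4 higher members in dendritic cells; gates on thinned cells left 1 measured there, with 0 higher and 0 lower. A 1.5-fold limit gave 20 higher and 14 lower list genes in macrophages, 16 and 14 in monocytes, and 21 and 5 in dendritic cells; a 50 UMI minimum gave 5 higher in neutrophils and 5 in dendritic cells. With the mean of per-cell CPM, the resident-marker over Ccr2 difference was 1.40 for Mt1 in ISO, and 0.24 for Mt1 and 0.24 for Mt2 in Control; ISO over Control was 0.23 for Mt1 and 1.08 for Mt2 in the resident-marker subset and -0.93 and -2.77 in the Ccr2 subset. Gating also moved Sod2 in neutrophils (1.48 by the largest marker share), Slc7a11 in dendritic cells (1.96 with barcodes of 2 lineages kept), Mt2 in dendritic cells (-2.01 by the largest marker share) and Gclm in monocytes (0.54 with gates on thinned cells), and C1q-based removal moved Mt2 in monocytes (3.67). The causes were not tested. Depth limits the lymphoid gates, with 25 to 80 ISO cells.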
